A study of Mus musculus with 12 samples.

Results

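Fatty acid uptake and beta-oxidation was followed through 36 listed genes, which cover the route from the capillary wall to acetyl-CoA in the mitochondrion. A listed gene counted as measured where its symbol stood in a probe set naming 1 gene, and the probe set with the highest mean over the 12 arrays was used. This left 34 of the 36 listed genes, among 18194 genes tested in all. Acsl1 and Cpt1b, the main fatty acid activating enzyme and the main outer carnitine palmitoyltransferase of muscle, had no such probe set and are not analysed here. RNA came from gastrocnemius, a mixed calf muscle, of mice on a C57Bl/6N/6J/129 background. The 4 groups of 3 arrays were young (10 week) wild-type, young (10 week) knock-out, old (24 month) wild-type and old (24 month) knock-out. Knock-out stands for a muscle-specific loss of PGC-1alpha, a coactivator encoded by Ppargc1a, with the deleting recombinase (cre) driven by the myogenin promoter, so that other cells of the tissue would keep the gene. The labels give no floxed-only or cre-only control, no sex and no statement that arrays came from separate animals, so p-values cover only how these samples vary, and some of that variation may be technical.

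Muscle takes up fatty acids set free from lipoproteins by lipoprotein lipase, carries them inside on binding proteins, joins them to coenzyme A and passes them into mitochondria as carnitine esters. There each turn of beta-oxidation removes a piece of the chain as acetyl-CoA through a dehydrogenase, a hydratase, a second dehydrogenase and a thiolase. The acyl-CoA dehydrogenases hand their electrons to the electron transfer flavoprotein and its dehydrogenase, which feed the respiratory chain. PGC-1alpha is known to raise transcription of oxidative genes in muscle through nuclear receptors of the ERR and PPAR families and through the nuclear respiratory factors.

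Promoters are shown for the electron transfer flavoprotein genes, because these 3 genes all fell in the arrays labelled knock-out, and for Acadm, which did not pass the test. The letters are the 250 bases before the annotated start of the gene, 5′ to 3′ on the gene's strand, from RefSeq (GRCm38.p6), with matches to an ERR or nuclear respiratory factor 1 motif in capitals. The positions are chr9:55512244-55512493 on the minus strand for Etfa, chr7:43443822-43444071 on the plus strand for Etfb, chr3:79628768-79629017 on the minus strand for Etfdh and chr3:153944644-153944893 on the minus strand for Acadm.
Etfa: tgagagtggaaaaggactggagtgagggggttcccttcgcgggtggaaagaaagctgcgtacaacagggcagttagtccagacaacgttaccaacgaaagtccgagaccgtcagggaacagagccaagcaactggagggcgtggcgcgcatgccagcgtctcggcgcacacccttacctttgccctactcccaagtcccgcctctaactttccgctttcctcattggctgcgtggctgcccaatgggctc
Etfb: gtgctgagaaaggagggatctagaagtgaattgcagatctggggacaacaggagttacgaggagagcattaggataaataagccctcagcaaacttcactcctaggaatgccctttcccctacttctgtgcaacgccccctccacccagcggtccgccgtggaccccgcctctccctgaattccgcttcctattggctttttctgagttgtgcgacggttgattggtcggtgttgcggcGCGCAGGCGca
Etfdh: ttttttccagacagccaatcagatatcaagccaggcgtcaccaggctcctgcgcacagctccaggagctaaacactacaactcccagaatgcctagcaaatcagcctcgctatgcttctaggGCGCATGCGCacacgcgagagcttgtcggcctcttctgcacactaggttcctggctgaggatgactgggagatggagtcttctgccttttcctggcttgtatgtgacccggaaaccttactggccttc
Acadm: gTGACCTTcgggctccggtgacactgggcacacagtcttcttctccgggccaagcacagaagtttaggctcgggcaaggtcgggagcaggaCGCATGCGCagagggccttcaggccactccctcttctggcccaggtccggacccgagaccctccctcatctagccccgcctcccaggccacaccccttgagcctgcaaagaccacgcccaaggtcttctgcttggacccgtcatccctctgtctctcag
The capitals in Etfb and Etfdh are the nuclear respiratory factor 1 core GCGCANGCG, beginning 11 bases before the start in Etfb and 128 in Etfdh, where a match on the opposite strand begins at 127. Acadm holds the ERR half-site AAGGTCA at 249 bases and the same core at 159 bases before the start, both on the opposite strand, and these letters were not in the Etfa window. RefSeq promoters, read over 300 bases from 250 before to 50 after the start, were at hand for 28 of the 34 genes (31 promoters). The 6 without one were Lpl, Crat, Acad9, Acaa2, Decr1 and Acot13. The counts below thus leave out Crat, Acaa2 and Acot13, which fell in the arrays labelled knock-out. Both strands were searched, and the half-site AAGGTCA lies within the longer ERR motif TCAAGGTCA. AAGGTCA was in 4.72% of 32851 mouse promoters and in 2 of the 31 (Acadm and Acacb), and TCAAGGTCA in 0.423% and in 0. GCGCANGCG was in 6.25% of all promoters and in 4 of the 31, those of Etfb, Etfdh, Slc22a5 and Acadm. CCGGAAG, a GABPA motif, was in 8.86% and in 2 (Cpt2 and Mlycd), and the GC box GGGCGG in 35.7% and in 22. The median GC content was 59.6% in the members' promoters and 52.4% in all promoters, and these matches are a description of letters in the windows.

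The deposited values are log2 signals, so a difference of 1 is a doubling, and values after ± are standard errors from limma. A number that follows a difference or a fold in parentheses is its adjusted p. Array medians lay between 6.19 and 6.25, and the mean signals of the 34 probe sets between 7.61 and 14.33, above the median probe set at 6.22. Ppargc1a RNA did not fall with the knock-out label: knock-out minus wild-type, averaged over ages, ran from 0.29 to 0.58 on its 5 probe sets and did not pass for the one tested (adjusted p = 0.159). The labels do not name the deleted exons, so knock-out here means the arrays labelled so. The summed signal of 6 of 6 skeletal muscle markers stood at log2 18.05 to 18.09 in all 4 groups, so markers of the labelled tissue were present in every array. Acta1 (mean 15.94) and Ckm (15.86) lay near the highest deposited value of 15.95, so this sum cannot show a change between groups. The summed signal of 7 of 7 slow fibre markers was 15.61 to 16.01 in wild-type and 16.01 to 16.13 in knock-out arrays of young muscle, and 15.57 to 16.29 against 16.26 to 16.72 in old muscle. All 7 slow fibre markers were above 0 in the averaged genotype difference (median 0.44) and 0 passed (5 at an unadjusted p under 0.05). With age all 7 were above 0 as well, and 2 passed, Tnni1 (0.73 ± 0.19, adjusted p = 0.0206) and Myl2 (0.36 ± 0.11, adjusted p = 0.0403), and the part of fibre type in the genotype and age results was not tested. The summed signal of 8 of 8 macrophage markers was 11.11 to 11.55 in wild-type and 11.14 to 11.88 in knock-out arrays of young muscle, and 10.88 to 11.97 against 12.04 to 12.27 in old muscle, with Itgam (mean 4.35) and Cd14 (5.95) below the median probe set. That of 8 of 8 endothelial markers was 11.74 to 12.06 and 11.44 to 11.94 in young muscle, and 11.61 to 11.74 and 11.26 to 11.85 in old muscle. Of the macrophage markers Cd68 rose with genotype, averaged (1.27 ± 0.29, adjusted p = 0.0305) and in old muscle (2.17 ± 0.41, adjusted p = 0.0256), and with age (1.97 ± 0.29, adjusted p = 0.000775). The other 7 macrophage markers did not pass in these comparisons. Of the 8, 3 had an unadjusted p under 0.05 with averaged genotype and 1 with age. With averaged genotype 7 were above 0 (median 0.37), and with age 6 were (median 0.07). Of the endothelial markers Cdh5 (-0.73 ± 0.09, adjusted p = 0.000276) and Tie1 (-0.61 ± 0.10, adjusted p = 0.00219) fell with age and 0 passed with genotype (2 at an unadjusted p under 0.05). The part of these cells in the genotype and age results was not tested either. In whole tissue, fewer cells of a type and less RNA per cell cannot be told apart.

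Of the 11 members that fell in the arrays labelled knock-out, by 1.18-fold (Hadhb and Etfb) to 1.66-fold (Acaa2), 9 belong to the steps that shorten the chain or take up its electrons, while genes of uptake and activation did not pass the test on the probe sets used (Acsl3 passed on 2 others). Averaged over the ages, 11 of 34 members fell, 0 rose and 23 did not pass limma at an adjusted p under 0.05. Of all genes tested, 4.22% passed in this comparison, 2.51% lower and 1.71% higher, while 32.4% of the members passed. The median difference over the 34 was -0.21, beside -0.01 over all genes. Among the 14 genes of the acyl-CoA dehydrogenases, electron transfer and the hydratase-to-thiolase steps, 9 fell and the median was -0.32. Among the 9 genes of uptake, triglyceride breakdown and activation 0 passed limma (2 at an unadjusted p under 0.05), and the median was -0.04. These sets of genes were not tested against each other. Of the 9, Pnpla2 and Slc27a1 read high in KO_old 1, and without that array they were at -0.43 and -0.32. Neither passed then, and Acsl3 stayed at 0.52. Without WT_young 3 or without WT_old 3 the 11 calls became 7, and 7 genes (Acadvl, Acads, Etfa, Etfdh, Hadh, Acaa2 and Acot13) kept their call whichever array was left out.

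**Figure D1:**
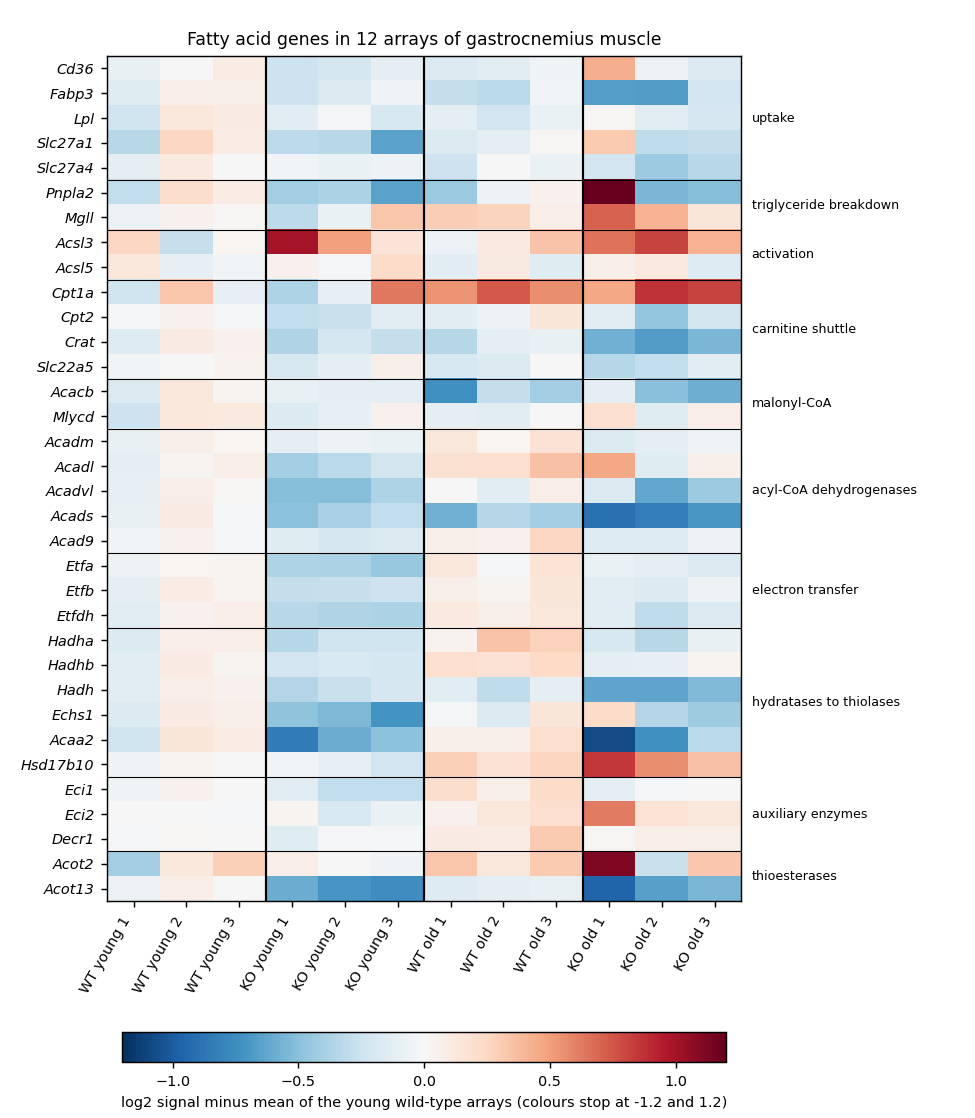
Heat map of the 34 genes (lines, ordered by role) in the 12 arrays (columns, 4 groups of 3). Colour is the log2 signal minus the mean of the young wild-type arrays. Blue fills most of the dehydrogenase, electron transfer and thiolase lines in both knock-out groups, and KO old 1 shows dark red for Pnpla2 (11.80) and Acot2 (11.25).

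Within each age fewer genes passed. In young muscle 1 member fell (Acot13) and 0 rose on the probe sets used (another one of Acsl3 passed). Of all genes 0.192% passed, 0.154% lower and 0.0385% higher. In old muscle 3 fell (Acot13, Acaa2 and Hadh) and 0 rose, while 1.32% of all genes passed, 0.852% lower and 0.473% higher. The knock-out arrays lay below the wild-type arrays without overlap for 19 of 34 members in young muscle (10.1% of all genes) and for 15 in old muscle (13.2% of all genes). They lay above without overlap for 0 in young muscle (10.7% of all genes) and for 2, Acsl3 and Hsd17b10, in old muscle (10.6%). The knock-out arrays were below the wild-type arrays at both ages for 14 members (41.2%, against 3.52% of all genes), namely Crat, Acadvl, Acads, Acad9, Etfa, Etfb, Etfdh, Hadha, Hadhb, Hadh, Acaa2, Eci1, Decr1 and Acot13. None was above at both ages (2.90% of all genes). Of the 14, Acad9, Eci1 and Decr1 did not pass the averaged test.

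**Figure D2:**
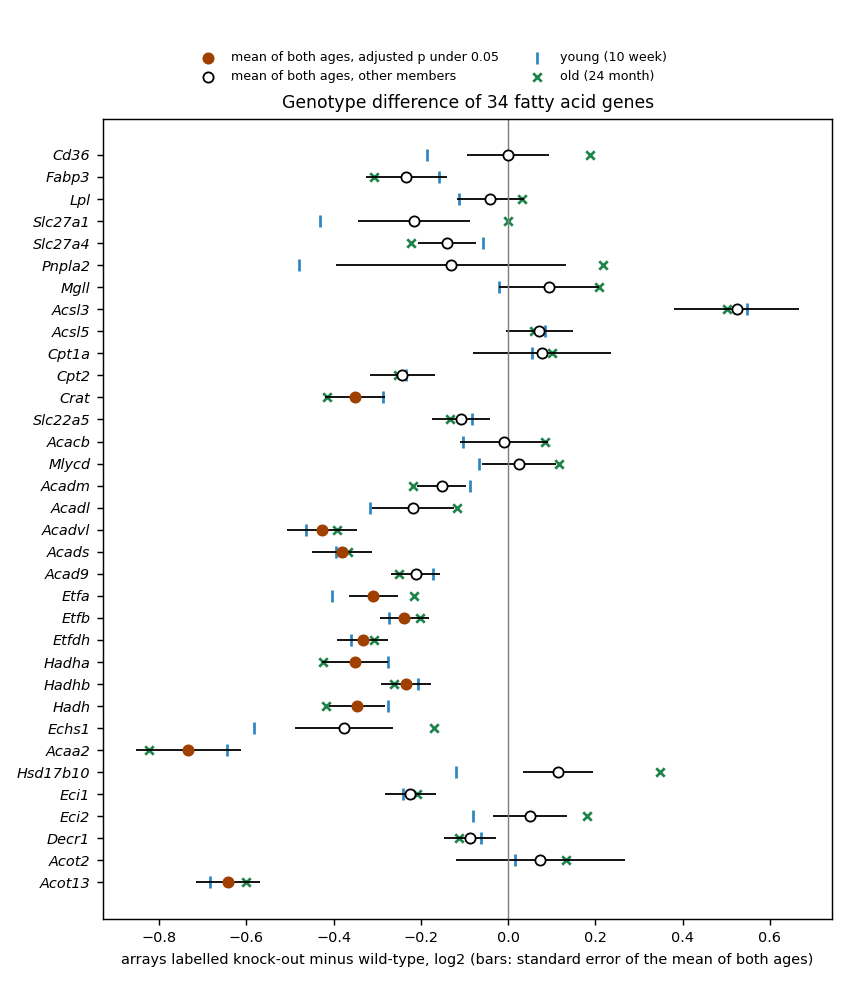
Knock-out minus wild-type on the log2 scale (horizontal axis) for the 34 genes, as the mean of both ages (circle with standard error), in young muscle (bar) and in old muscle (cross). Filled circles mark the 11 genes past an adjusted p of 0.05, from Etfb and Hadhb near -0.24 to Acaa2 at -0.73, and Acsl3 stands alone at 0.52.

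Uptake genes did not pass. Fabp3, the fatty acid binding protein of heart and muscle, read log2 14.04, 14.26 and 14.25 in wild-type and 13.94, 14.01 and 14.13 in knock-out arrays of young muscle, and 13.90, 13.86 and 14.16 against 13.52, 13.52 and 13.96 in old muscle. Its knock-out arrays overlapped the wild-type arrays at both ages, with a difference of -0.23 ± 0.09 (adjusted p = 0.161). The other 4 were Cd36, a membrane fatty acid carrier (0.00 ± 0.09, 95% interval -0.20 to 0.20), Lpl, lipoprotein lipase (-0.04 ± 0.08, -0.21 to 0.13), and the transport proteins Slc27a1 (-0.22 ± 0.13) and Slc27a4 (-0.14 ± 0.07), and 1 of the 5 uptake genes had an unadjusted p under 0.05. Cd36 and Slc27a1 each had 1 old knock-out array well above its replicates: KO_old 1 read 12.99 for Cd36 beside 12.49 and 12.39, and 9.47 for Slc27a1 beside 8.85 and 8.86. Without that array the averaged differences were -0.09 (adjusted p = 0.348) for Cd36 and -0.32 (adjusted p = 0.106) for Slc27a1.

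Triglyceride breakdown was represented by Pnpla2, the adipose triglyceride lipase, and Mgll, monoglyceride lipase. Pnpla2 read log2 10.25, 10.75 and 10.63 in wild-type and 10.12, 10.16 and 9.90 in knock-out arrays of young muscle, and 10.10, 10.47 and 10.59 against 11.80, 9.99 and 10.03 in old muscle. In young muscle the knock-out arrays were all below the wild-type arrays, and in old muscle 2 of 3 were below while KO_old 1 was higher than every other array. Its averaged difference was -0.13 ± 0.26 (95% interval -0.70 to 0.44), and -0.43 without KO_old 1 (adjusted p = 0.0549). Mgll read log2 9.64, 9.77 and 9.73 in wild-type and 9.40, 9.63 and 10.05 in knock-out arrays of young muscle, and 10.01, 9.98 and 9.80 against 10.43, 10.13 and 9.86 in old muscle, with overlapping groups at both ages and a difference of 0.09 ± 0.12 (adjusted p = 0.648). Neither gene passed, at an adjusted p or an unadjusted p under 0.05.

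Adipocyte markers were high in the same array. The summed signal of the 5 of 8 adipocyte markers that were measured (Adipoq, Lep, Retn, Cidec and Fabp4, the last also on the list of other fatty acid genes) was 13.76 to 14.10 in wild-type and 13.36 to 13.77 in knock-out arrays of young muscle, and 13.33 to 13.70 against 13.41 to 15.25 in old muscle. Lep, a defining marker, averaged 6.07, below the median probe set. Their mean score relative to young wild-type was 1.55, 1.003 and -1.12 in KO_old 1, 2 and 3. KO_old 2 was thus high in adipocyte markers as well, while its Pnpla2 signal was 9.99 beside 11.80 in KO_old 1. The part of adipose tissue in the values of KO_old 1 was not tested.

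**Figure D3:**
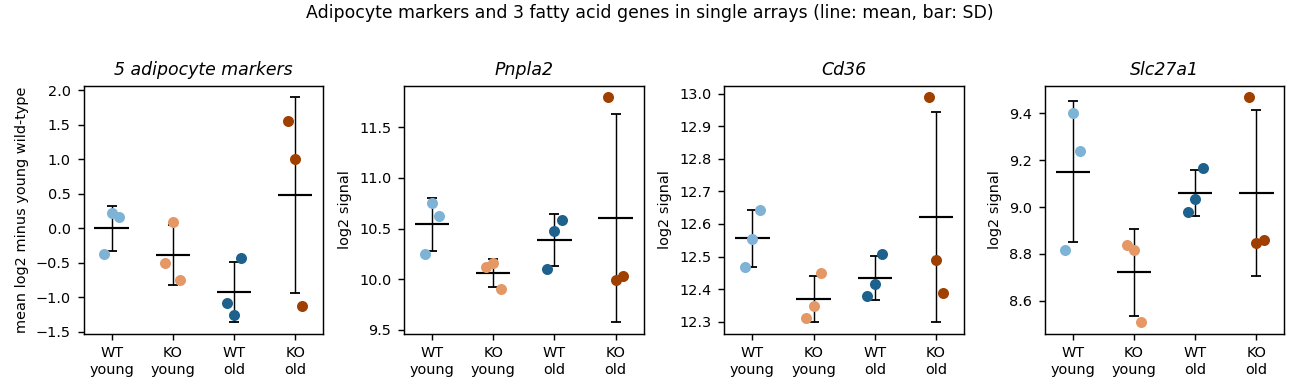
Mean score of the 5 measured adipocyte markers (log2 minus the young wild-type mean) and log2 signals of Pnpla2, Cd36 and Slc27a1, with a point per array, the group mean as a line and the SD as a bar. KO old 1 is the highest point of all 4 panels, and KO old 2 is high only in the marker score (1.003).

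Activation held the member with the highest genotype difference. Acsl3, an acyl-CoA synthetase of the endoplasmic reticulum and lipid droplets, read log2 9.28, 8.76 and 9.06 in wild-type and 10.03, 9.53 and 9.19 in knock-out arrays of young muscle, and 8.96, 9.15 and 9.38 against 9.69, 9.85 and 9.45 in old muscle. The old knock-out arrays were all above the old wild-type arrays, while young groups overlapped. Its difference was 0.52 ± 0.14 (1.44-fold higher, adjusted p = 0.0610) and did not pass on the probe set used. Its 2 other probe sets, dimmer at means of 8.04 and 6.27, gave 0.85 (adjusted p = 0.0116 over all probe sets) and 0.67 (0.0107), so the absence of a call for Acsl3 rests on the choice of probe set. In young muscle alone the one with a mean of 6.27 gave 0.98 (0.0395 over all probe sets). Acsl5, another synthetase, read log2 8.13, 7.90 and 7.96 in wild-type and 8.04, 7.98 and 8.22 in knock-out arrays of young muscle, and 7.87, 8.11 and 7.85 against 8.05, 8.12 and 7.84 in old muscle, with overlapping groups and a difference of 0.07 ± 0.08 (95% interval -0.10 to 0.24).

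Of the carnitine shuttle, Crat fell. Crat, carnitine acetyltransferase, which moves acetyl groups from coenzyme A to carnitine, read log2 11.89, 12.14 and 12.10 in wild-type and 11.69, 11.83 and 11.76 in knock-out arrays of young muscle, and 11.70, 11.93 and 11.95 against 11.47, 11.38 and 11.50 in old muscle. Knock-out arrays were below wild-type arrays at both ages without overlap, and the averaged difference was -0.35 ± 0.07 (1.27-fold lower, adjusted p = 0.0164). The call was lost without WT_young 3 (adjusted p = 0.0517) or WT_old 3 (0.0518), and its other probe sets gave -0.36 and -0.23. Cpt2, the inner-membrane carnitine palmitoyltransferase, was at -0.24 ± 0.07 and did not pass (adjusted p = 0.0855), Slc22a5, the carnitine importer, at -0.11 ± 0.07 and Cpt1a, the liver-type outer transferase, at 0.08 ± 0.16.

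The malonyl-CoA pair, which sets the block on outer carnitine transfer, showed no genotype difference past the test. Mlycd, which breaks malonyl-CoA down, read log2 10.34, 10.72 and 10.70 in wild-type and 10.42, 10.49 and 10.64 in knock-out arrays of young muscle, and 10.48, 10.45 and 10.59 against 10.77, 10.44 and 10.66 in old muscle. Its groups overlapped, with a difference of 0.03 ± 0.09 (95% interval -0.16 to 0.21). Acacb, the mitochondrial acetyl-CoA carboxylase that makes malonyl-CoA, was at -0.01 ± 0.10 (-0.23 to 0.21), and neither had an unadjusted p under 0.05.

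All 5 acyl-CoA dehydrogenases, which open each turn and differ in the chain length they take, were below 0, and 2 fell. Acadvl, the very-long-chain enzyme of the inner membrane, read log2 12.82, 13 and 12.93 in wild-type and 12.41, 12.41 and 12.54 in knock-out arrays of young muscle, and 12.91, 12.78 and 12.99 against 12.74, 12.29 and 12.48 in old muscle. Its knock-out arrays were below the wild-type arrays at both ages, with a difference of -0.43 ± 0.08 (1.34-fold lower, adjusted p = 0.0138). Acads, the short-chain enzyme, read log2 10.46, 10.66 and 10.55 in wild-type and 10.06, 10.16 and 10.26 in knock-out arrays of young muscle, and 9.98, 10.22 and 10.15 against 9.66, 9.72 and 9.86 in old muscle. It too was lower without overlap at both ages, with a difference of -0.38 ± 0.07 (1.30-fold lower, adjusted p = 0.0122). The medium-chain Acadm (-0.15 ± 0.06, adjusted p = 0.133), the long-chain Acadl (-0.22 ± 0.09, 0.193) and Acad9, which also serves assembly of complex I (-0.21 ± 0.06, 0.0563), did not pass. Acadl passed without KO_old 1 (-0.30, adjusted p = 0.0334), the array in which it read 13.64 beside 13.03 and 13.24.

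Electron transfer fell in all 3 of its genes. Etfa, the alpha subunit of the electron transfer flavoprotein, read log2 12.93, 13.01 and 13.02 in wild-type and 12.61, 12.61 and 12.53 in knock-out arrays of young muscle, and 13.12, 12.97 and 13.15 against 12.91, 12.88 and 12.81 in old muscle. Etfb, its beta subunit, read log2 12.17, 12.37 and 12.32 in wild-type and 11.995, 12.01 and 12.04 in knock-out arrays of young muscle, and 12.35, 12.32 and 12.43 against 12.15, 12.12 and 12.23 in old muscle. Etfdh, the membrane dehydrogenase that passes the electrons to ubiquinone, read log2 12.42, 12.60 and 12.63 in wild-type and 12.22, 12.19 and 12.17 in knock-out arrays of young muscle, and 12.67, 12.62 and 12.69 against 12.42, 12.25 and 12.38 in old muscle. In each of the 3 genes the knock-out arrays were below the wild-type arrays at both ages. The differences were -0.31 ± 0.06 for Etfa (1.24-fold lower, adjusted p = 0.0124), -0.24 ± 0.06 for Etfb (1.18-fold, 0.0367) and -0.33 ± 0.06 for Etfdh (1.26-fold, 0.0112). Etfb kept its call only without WT_young 1, KO_old 1 or KO_old 3, and was between 0.0598 and 0.0986 without each of the other 9 arrays. Etfdh was not called as the mean of its probe sets (adjusted p = 0.108), its second probe set having a mean signal of 4.13.

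Of the 6 genes of the hydratase, second dehydrogenase and thiolase steps, 4 fell. Acaa2, the medium-chain thiolase, read log2 11.78, 12.17 and 12.11 in wild-type and 11.18, 11.42 and 11.53 in knock-out arrays of young muscle, and 12.08, 12.09 and 12.22 against 10.95, 11.28 and 11.70 in old muscle. Its knock-out arrays were all lower than its wild-type arrays, and its difference of -0.73 ± 0.12 (1.66-fold lower, adjusted p = 0.00683) was the lowest of the module. Its 2 other probe sets gave -0.54 and -0.45. In old muscle alone Acaa2 was -0.82 ± 0.17 (adjusted p = 0.0402) and in young muscle -0.64 ± 0.17 (0.174). The old-muscle call held only without WT_young 1, KO_young 1 or KO_old 3, and was between 0.0515 and 0.155 without each of the other 9 arrays.

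Hadha and Hadhb encode the subunits of the trifunctional protein, which takes long chains through the last 3 reactions of a turn. Hadha read log2 11.40, 11.64 and 11.65 in wild-type and 11.22, 11.33 and 11.32 in knock-out arrays of young muscle, and 11.61, 11.90 and 11.84 against 11.37, 11.23 and 11.48 in old muscle. Hadhb read log2 13.44, 13.66 and 13.61 in wild-type and 13.34, 13.39 and 13.36 in knock-out arrays of young muscle, and 13.77, 13.74 and 13.81 against 13.46, 13.47 and 13.60 in old muscle. Both were lower in knock-out arrays at both ages without overlap, with differences of -0.35 ± 0.08 for Hadha (1.28-fold, adjusted p = 0.0251) and -0.23 ± 0.06 for Hadhb (1.18-fold, 0.0445). Hadha lost its call without any of WT_young 2 and 3, KO_young 1 and 2, WT_old 2 and 3, and KO_old 2 (0.0546 to 0.0699). Hadhb kept its call only without WT_young 1 or KO_old 3 (0.0564 to 0.110 without each of the other 10), and its other probe sets gave -0.07 and 0.04, and the mean of its probe sets did not pass (0.361).

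Hadh, the short-chain hydroxyacyl-CoA dehydrogenase, read log2 14.01, 14.22 and 14.19 in wild-type and 13.78, 13.87 and 13.93 in knock-out arrays of young muscle, and 14.003, 13.83 and 14.03 against 13.50, 13.50 and 13.61 in old muscle. The knock-out arrays were below the wild-type arrays at both ages, with a difference of -0.35 ± 0.06 (1.27-fold, adjusted p = 0.0133). In old muscle alone it was -0.42 ± 0.09 (0.0458), a call kept only without WT_young 1 or KO_old 3 and between 0.0543 and 0.182 without each of the other 10 arrays. The probe set used is of a type whose probes can also match other transcripts, and its other probe set with a mean above 6.22 gave -0.28. Echs1, the short-chain hydratase, was at -0.38 ± 0.11 (adjusted p = 0.0760) and passed without KO_old 1 (-0.48, 0.00887), which read 11.71 beside 11.14 and 11.06. Hsd17b10, a dehydrogenase of branched-chain and short-chain substrates that is also a subunit of mitochondrial RNase P, was the 1 gene of the 6 above 0 (0.11 ± 0.08).

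The auxiliary enzymes, which reshape unsaturated chains, had 0 of 3 past limma (1 at an unadjusted p under 0.05). Eci1, an enoyl-CoA isomerase, read log2 11.94, 12.04 and 11.99 in wild-type and 11.86, 11.70 and 11.70 in knock-out arrays of young muscle, and 12.20, 12.05 and 12.21 against 11.88, 11.96 and 11.99 in old muscle. Its knock-out arrays lay below the wild-type arrays at both ages, with a difference of -0.22 ± 0.06 (adjusted p = 0.0531). Decr1, the dienoyl-CoA reductase, was at -0.09 ± 0.06 and Eci2, a second isomerase, at 0.05 ± 0.09.

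Acot13, a thioesterase that frees fatty acids from coenzyme A and sits at mitochondria, fell with the smallest p of the module. Acot13 read log2 12.57, 12.72 and 12.63 in wild-type and 12.05, 11.93 and 11.89 in knock-out arrays of young muscle, and 12.49, 12.53 and 12.55 against 11.68, 11.99 and 12.09 in old muscle. The 6 knock-out arrays, 11.68 to 12.09, were all below the 6 wild-type arrays, 12.49 to 12.72. Its difference was -0.64 ± 0.07 (1.56-fold lower, adjusted p = 0.00111) over both ages, -0.68 ± 0.10 in young muscle (0.0304) and -0.60 ± 0.10 in old muscle (0.0197). The averaged call stood without each array. The young-muscle call was lost without WT_young 2 or 3, any 1 KO_young array or any 1 WT_old array (0.0551 to 0.172), and the old-muscle call without WT_old 1 (0.0523), 2 (0.0800) or 3 (0.0978). Acot2, a mitochondrial thioesterase with a near-identical copy in Acot1, read log2 9.71, 10.26 and 10.41 in wild-type and 10.21, 10.13 and 10.08 in knock-out arrays of young muscle, and 10.46, 10.26 and 10.44 against 11.25, 9.86 and 10.45 in old muscle, and its probes may read both genes. Its groups overlapped, with a difference of 0.07 ± 0.19 (95% interval -0.35 to 0.49).

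**Figure D4:**
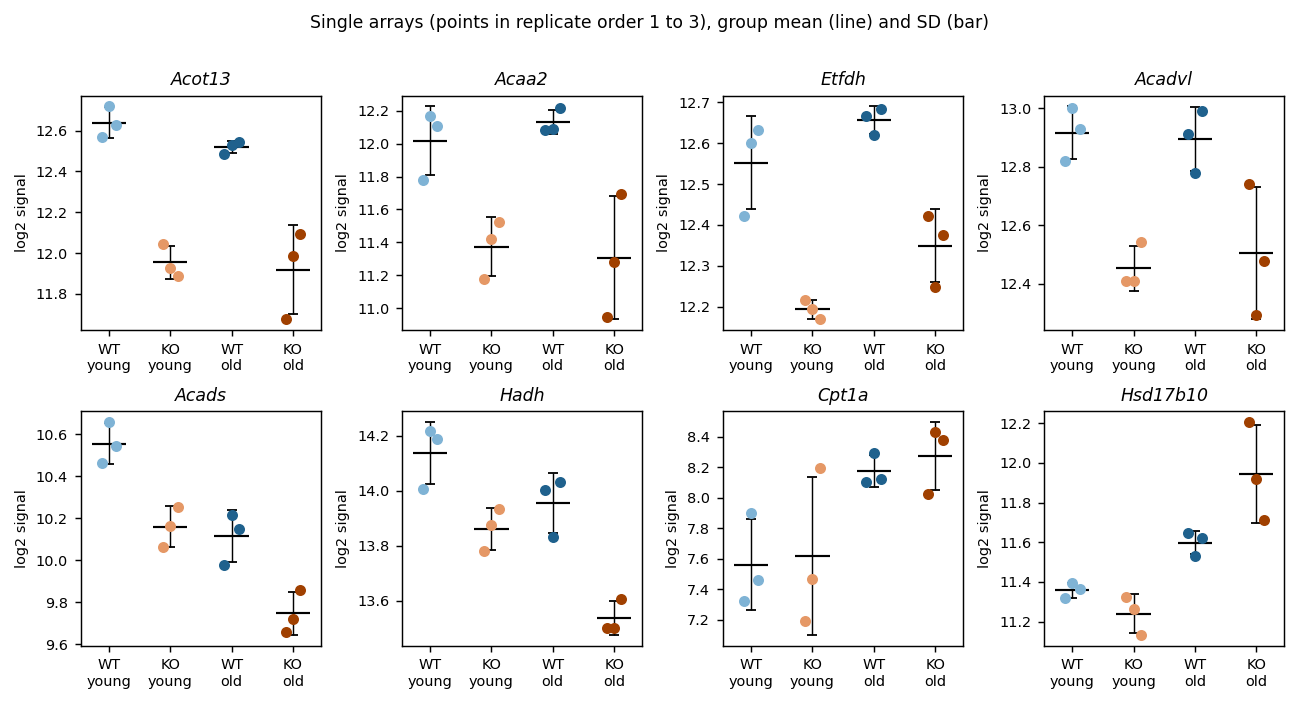
Log2 signal of 8 genes, with a point per array, the group mean as a line and the SD as a bar; the vertical axes do not start at 0. In Acot13, Acaa2, Etfdh, Acadvl, Acads and Hadh both knock-out groups lie under the wild-type group of the same age, while Cpt1a and Hsd17b10 lie higher in old muscle.

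The genotype differences at the 2 ages share no arrays and lay on the same side of 0 for most members. Of 34 members, 22 were lower at both ages, 4 higher at both, 8 lower in young and higher in old muscle, and 0 the other way. Across the 34 genes the differences correlated at r = 0.68, a description over genes that share arrays and are not independent, beside 0.39 over the 18194 genes. No member passed the limma test of the difference between the ages, in which 0% of all genes passed (992 at an unadjusted p under 0.05), and 1 member had an unadjusted p under 0.05. That gene was Hsd17b10, at -0.12 ± 0.11 in young and 0.35 ± 0.11 in old muscle (difference of the differences 0.47 ± 0.16, adjusted p = 0.871). Pnpla2 (-0.48 and 0.22), Slc27a1 (-0.43 and 0.00) and Echs1 (-0.58 and -0.17) also stood off the diagonal, and KO_old 1 was high in these genes as in Hsd17b10 (12.21 beside 11.92 and 11.71). Without KO_old 1 the old-muscle differences were 0.22 for Hsd17b10, -0.38 for Pnpla2, -0.20 for Slc27a1 and -0.37 for Echs1.

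**Figure D5:**
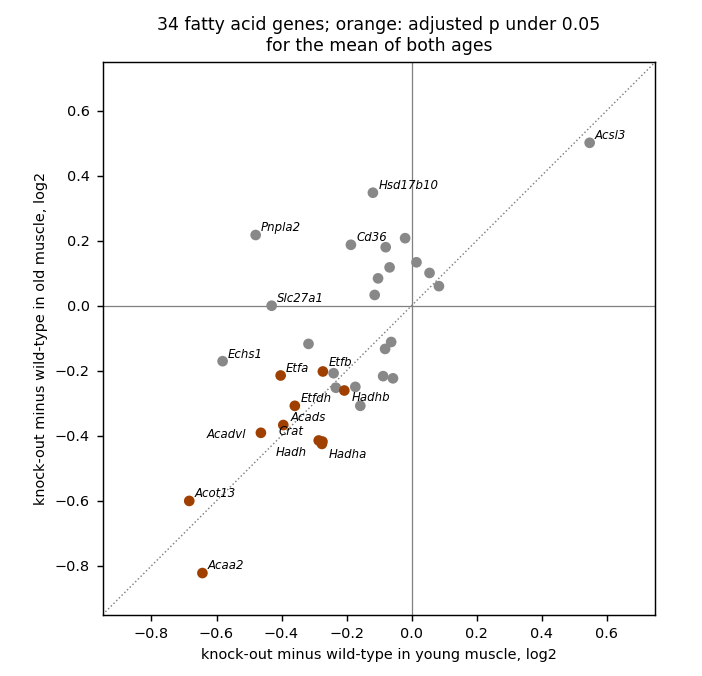
Knock-out minus wild-type in young muscle (horizontal axis) against old muscle (vertical axis), log2, a point per gene. The dotted line marks equal differences, and the genes past the averaged test (orange) lie at the lower left, from Etfb (-0.27 and -0.20) to Acaa2 (-0.64 and -0.82).

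With age the module did not move as a block. Averaged over the genotypes, old muscle had 4 members higher (Cpt1a, Acadl, Etfa and Hsd17b10), 4 lower (Crat, Acacb, Acads and Hadh) and 26 that did not pass on the probe sets used. Of all genes 16.2% passed, 7.58% higher and 8.65% lower, while 23.5% of the members passed. The median was 0.10 over the members and 0.00 over all genes. In wild-type muscle 1 member fell (Acads) and 0 rose, with 3.62% of all genes past the test, 1.97% lower and 1.65% higher. In knock-out muscle 2 rose (Hsd17b10 and Etfa) and 2 fell (Acads and Hadh) on the probe sets used. Of all genes 10.3% passed, 4.85% higher and 5.41% lower. Another probe set of Mgll (0.63, adjusted p = 0.0142 over all probe sets) and another of Acsl3 (-0.73, 0.0146) passed in knock-out muscle. The probe sets used for these genes gave 0.44 and 0.08. Old arrays lay above young arrays without overlap for 8 members among wild-types (12.8% of all genes) and 11 among knock-outs (13.8%), and below for 3 (13.5%) and 4 (14.9%).

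Signs of RNA quality moved with age. The 18S ribosomal RNA control probes averaged 13.23 to 14.17 in the 6 young arrays and 11.70 to 12.84 in the 6 old arrays. The 5′ minus 3′ signal was -0.33 to -0.16 in young and -0.14 to 0.05 in old arrays for Actb, and -0.24 to -0.08 and -0.04 to 0.02 for Gapdh. The young and old arrays did not overlap in any of the 3 measures, and their part in the age differences was not tested. Without WT_young 3 or KO_young 2 the 8 calls with age became 5.

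Cpt1a was the highest member with age, and Acacb fell. The Cpt1a probe set read log2 7.33, 7.90 and 7.46 in wild-type and 7.19, 7.47 and 8.19 in knock-out arrays of young muscle, and 8.11, 8.30 and 8.12 against 8.02, 8.43 and 8.38 in old muscle. All old arrays were above all wild-type young arrays, while KO_young 3 lay within the range of the old knock-out arrays. Old minus young was 0.64 ± 0.16 (1.55-fold higher, adjusted p = 0.0166), and its second probe set gave 0.39. Acacb read log2 11.45, 11.76 and 11.66 in wild-type and 11.54, 11.52 and 11.51 in knock-out arrays of young muscle, and 10.89, 11.34 and 11.21 against 11.52, 11.12 and 11.05 in old muscle. Its old wild-type arrays were all below the young ones, its knock-out arrays overlapped, and the difference was -0.39 ± 0.10 (1.31-fold lower, adjusted p = 0.0208), lost without WT_young 2 (0.0511) or WT_young 3 (0.0514). Crat fell by 0.25 on the log2 scale (SE 0.07, adjusted p = 0.0270), a call lost without WT_young 2 or 3, KO_young 2 or 3, WT_old 1 or KO_old 2 (0.0558 to 0.0700).

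Acads was the 1 member that fell with age in both genotypes and also with genotype. Its old arrays were below its young arrays among wild-types (-0.44 ± 0.10, adjusted p = 0.0283) and among knock-outs (-0.41 ± 0.10, 0.0194), with -0.43 ± 0.07 on average (1.34-fold lower, 0.00144). It was also the 1 member whose old arrays lay below the young ones without overlap in both genotypes (2.94% of members, 7.01% of all genes). The wild-type call was lost without WT_young 2 or 3 or any 1 WT_old array (0.0555 to 0.0995), and the knock-out call without KO_young 2 (0.0618), KO_young 3 (0.0823) or KO_old 1 (0.0558). Hadh differed by -0.25 ± 0.06 on average (adjusted p = 0.0173), with -0.33 ± 0.09 in knock-out muscle (0.0398). Its other bright probe set gave -0.04 with age, the mean of its probe sets did not pass (0.0809), and the knock-out call was kept only without WT_young 1 or 2, WT_old 2 or KO_old 3.

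Hsd17b10 rose with age. It read log2 11.32, 11.39 and 11.36 in wild-type and 11.33, 11.26 and 11.13 in knock-out arrays of young muscle, and 11.64, 11.53 and 11.62 against 12.21, 11.92 and 11.71 in old muscle. Old arrays were above young arrays in both genotypes, by 0.24 ± 0.11 among wild-types (adjusted p = 0.317) and 0.71 ± 0.11 among knock-outs (1.63-fold, 0.00316), and by 0.47 ± 0.08 on average (1.39-fold, 0.00204). Its knock-out and averaged calls stood without each array, and its second probe set gave 0.36 on average. Acadl read log2 13.07, 13.21 and 13.25 in wild-type and 12.77, 12.85 and 12.96 in knock-out arrays of young muscle, and 13.36, 13.37 and 13.53 against 13.64, 13.03 and 13.24 in old muscle. The old Acadl signals were above the young ones in both genotypes, by 0.34 ± 0.09 (1.27-fold, adjusted p = 0.0258), and the call was lost without WT_young 1, KO_young 1, KO_young 2 or WT_old 3 (0.0552 to 0.0651) and as the mean of probe sets (0.181). Etfa was 0.19 ± 0.06 higher on average (0.0384) and 0.28 ± 0.08 in knock-out muscle (0.0419). Both Etfa calls were lost without most single arrays, the averaged one kept only without WT_old 2 or KO_old 3 (0.0543 to 0.0934 otherwise) and the knock-out one likewise (0.0505 to 0.141).

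Old arrays were above young arrays without overlap in both genotypes for 6 members (17.6%, against 6.10% of all genes), Acadl, Hadhb, Hsd17b10, Eci1, Eci2 and Decr1. Of these, Hadhb (0.17 ± 0.06, adjusted p = 0.06001), Eci1 (0.18 ± 0.06, 0.0560), Eci2 (0.26 ± 0.09, 0.0583) and Decr1 (0.14 ± 0.06, 0.134) did not pass. Without KO_old 1, Hadhb (0.19, adjusted p = 0.0499) and Eci1 (0.20, 0.0429) passed limma, while Eci2 (0.18, 0.0558) and Decr1 (0.15, 0.119) did not. Among uptake, triglyceride breakdown and activation 0 of 9 passed limma (3 at an unadjusted p under 0.05), with Fabp3 at -0.29 ± 0.09 (0.0523) and Mgll at 0.33 ± 0.12 (0.0738). Without KO_old 1, Slc27a4 passed as lower in old muscle (-0.22, adjusted p = 0.0437), while Fabp3 (0.0979) and Mgll (0.141) did not. The probe set chosen matters here too, since 2 of the 3 other Mgll probe sets gave 0.34 (adjusted p = 0.0448 over all probe sets) and 0.47 (0.00590). Further members without a call with age had another probe set that passed in the same way. These were Acaa2 (0.58, 0.0109), Hadhb (0.46, 0.0202), Acad9 (-0.24, 0.0323) and Acsl3 (-0.42, 0.0262). The probe sets used for Acad9 and Acsl3 gave 0.09 and 0.10, of the opposite sign.

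Other genes of fatty acid metabolism, a list of 50 with 49 measured, hold regulators, lipid droplet proteins, peroxisomal enzymes and related isoforms. With genotype averaged over ages 4 fell, 1 rose and 44 did not pass, with a median of 0.04. Thus 10.2% of the 49 passed, against 4.22% of all genes. Esrra, the nuclear receptor ERR-alpha, fell by 0.83 on the log2 scale (SE 0.10, adjusted p = 0.00139) and passed in old muscle alone (-0.91 ± 0.14, 0.0124). Ppara, the fatty acid receptor PPAR-alpha (-0.45 ± 0.11, 0.0376), Esrrb, a related ERR gene (-0.45 ± 0.11, 0.0470), and Acat1, a mitochondrial acetoacetyl-CoA thiolase (-0.32 ± 0.06, 0.0114), fell as well, and the thioesterase gene Acot9 rose (0.45 ± 0.11, 0.0432). Limma called 0 of the 49 in young muscle (11 at an unadjusted p under 0.05), where 0.192% of all genes passed. In old muscle it called 1, Esrra (2.04%, against 1.32% of all genes).

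With age, averaged over genotypes, 10 of the 49 rose and 6 fell (32.7%, against 16.2% of all genes), with a median of 0.07. Ucp3, a mitochondrial carrier gene of muscle linked to fatty acid load, rose by 1.57 ± 0.15 (2.97-fold, adjusted p = 6.6e-05). Acsl6, an acyl-CoA synthetase (1.24 ± 0.15, 0.000225), and Pdk4, a kinase that holds back pyruvate oxidation (1.21 ± 0.19, 0.00112), rose too. The lipid droplet coat gene Plin3 (-0.64 ± 0.10, 0.00122), the receptor partner Rxra (-0.36 ± 0.07, 0.00376) and the thioesterase Acot7 (-0.57 ± 0.11, 0.00516) fell. Within genotypes 4 rose and 1 fell among wild-types (10.2%, against 3.62% of all genes), and 7 rose and 3 fell among knock-outs (20.4%, against 10.3%). Ucp3, Acsl6 and Pdk4 rose and Plin3 fell in both genotypes. Ucp3 was at 1.85 ± 0.22 (0.00128) among wild-types and 1.29 ± 0.22 (0.00411) among knock-outs, Acsl6 at 1.12 ± 0.21 and 1.37 ± 0.21, and Pdk4 at 1.12 ± 0.26 and 1.29 ± 0.26.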

How the data were processed

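The authors deposited log2 signals from RMA (affy), per the submitters' processing notes, with no version given. The 12 arrays (4 groups of 3) held 45101 probe sets, of which 34958 named 1 gene, 932 several and 9211 none, by GEO's platform annotation. The values were used as deposited, with a signal floor at the median probe set, 6.22.

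A model of 4 group means was fitted to all 12 arrays with limma 3.58.1 (R 4.3.3; 8 residual and 4.15 prior degrees of freedom). The Benjamini-Hochberg adjustment ran over all 18194 genes, and a gene passed at an adjusted p under 0.05. The scripts were tested on simulated data. The averaged comparisons weight the ages, or the genotypes, equally. The 3 arrays per group limit the precision.

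Members and lists were chosen with earlier results of these data known. Values in every array are given for each member past the threshold in any of 7 comparisons and, per role, for the smallest p with genotype and with age. Of the other fatty acid genes, values are given for at most 6 past the threshold per comparison, smallest p first. Replicate numbers follow the accession order and pair no arrays.

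As alternatives, a gene's probe sets were averaged, genes with a mean under 6.22 were dropped, arrays were centred on their medians, quantile normalized or weighted, variances were trended and robust, fits were limited to the groups compared, the threshold was set at 0.10, and arrays were left out one at a time. A fit without both KO_old 1 and WT_young 1 was chosen after seeing the data. Acsl1 and Cpt1b were not analysed here.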

Additional observations from a re-analysis of the deposited data

How the results depend on the processing

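The 28 calls of single members kept their direction in all 569 alternatives run, with 436 still past the threshold, 133 not past it and 0 reversed. Many of the 569 could not reverse a call, because they leave the difference itself unchanged. These are brighter genes only, trended and robust variances, only the groups compared, the threshold of 0.10, and leaving out an array of a group not compared. The threshold of 0.10 could not lose a call either, so the totals overstate how far the calls were tested. The count of members past the threshold moved more than the directions did. In young muscle the 1 call became 2 with the mean of probe sets, 2 with brighter genes only, 2 with quantile normalization again, 3 with trended and robust variances, 14 with array weights, 2 at an adjusted p of 0.10 and 7 without both KO_old 1 and WT_young 1 (added after seeing the data). In old muscle the 3 calls became 1 with the mean of probe sets, 5 with brighter genes, 6 with trended variances, 0 with only the groups compared and 7 at 0.10. With age in wild-type muscle the 1 call became 3 with array weights, 2 at 0.10 and 2 without both arrays. With age in knock-out muscle the 4 calls became 7 with brighter genes, 7 with trended variances, 1 with only the groups compared, 9 at 0.10 and 1 without both arrays. Averaged over ages, the 11 genotype calls became 17 with array weights, and the count ran from 9 to 17 over these settings. Etfb (adjusted p = 0.0535) and Hadhb (0.0640) lost their calls with median centring. With the mean of probe sets Etfdh (0.108) and Hadhb (0.361) lost theirs, and with quantile normalization again Hadhb did (0.0516). The 8 averaged age calls became 13 with brighter genes, 14 with array weights and 14 at 0.10. Fewer arrays or genes enter some of these fits, and array weights gave WT_young 3 a weight of 4.73 and KO_old 1 0.282; otherwise the cause was not tested. Leaving out 1 array gave 0 to 4 (young genotype), 0 to 5 (old genotype), 0 to 2 (age, wild-type), 1 to 7 (age, knock-out), 0 to 0 (interaction), 7 to 13 (averaged genotype) and 5 to 11 (averaged age). The members' median genotype difference stayed within -0.23 to -0.16 (averaged) without any 1 array. Of 21 other probe sets of members above 6.22, 18 had the sign of the one used for averaged genotype and 16 for averaged age. No paired analysis was possible because the labels carry no replicate numbers.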

Other observations

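Among the 34 fatty acid genes, the spread between arrays of a group was highest for Pnpla2 (pooled SD 0.55), Acot2 (0.40), Cpt1a (0.32) and Acsl3 (0.29). KO_old 1 stood above the mean of its 2 replicates by 1.79 for the lipase gene Pnpla2, whose other 2 old knock-out arrays lay 0.04 apart, by 1.09 for Acot2 (0.59 apart) and by 0.61 for the transporter gene Slc27a1 (0.01 apart). It stood 0.54 below them for Acaa2 (0.42 apart), 0.38 below for Cpt1a (0.05 apart) and 0.36 below for Acot13 (0.10 apart). The departures of KO_old 1 thus ran in both directions within the module, and in Acot13 and Acaa2 in the direction of the averaged genotype difference.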
